A study of Mus musculus with 8 samples.

Results

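Ligands and receptors of the tumor necrosis factor (TNF) superfamily were followed in cells from mouse tumors and blood that were sorted as monocytic. The 9 genes were taken by name and not by a cut on their values, but with earlier results of these data known. They were the ligands Tnf, Tnfsf9, Tnfsf10 and Tnfsf13b and the receptors Tnfrsf9, Tnfrsf1a, Tnfrsf1b, Cd40 and Fas, out of 32285 genes in the count matrices. All 9 were detected. The question the design put was how local ionizing radiation (IR) and the loss of the m6A reader Ythdf2 in myeloid cells alter cells sorted as monocytic myeloid-derived suppressor cells. MC38 colon carcinoma tumors grew in C57BL/6J mice of both sexes, 8 to 10 weeks old. Tumors were given 20 Gy in 1 dose or sham treatment (control), and CD45+CD11b+Ly6Chi cells were sorted from tumor or blood 3 days later. All mice carried floxed Ythdf2. Wild-type (WT) mice had no Cre, and conditional knockout (cKO) mice had LyzCre, a lysozyme-driven Cre, which is active in monocytes, macrophages and granulocytes rather than in 1 cell type alone. Each of the 8 groups (tumor or blood, control or IR, WT or cKO) was 1 pool of 5 mice with no replicate. The WT and cKO pools of a condition were stained with hashtags B0301 and B0302 and run in the same 10x 3′ library, which gave 4 libraries.

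TNF superfamily ligands are trimeric proteins made mostly by immune cells, and their receptors pass the signal on through adaptor proteins to NF-κB and MAP kinases or, for receptors with a death domain, to caspases. Myeloid cells are a major source of TNF itself. The costimulatory pair Tnfsf9 (4-1BB ligand) and Tnfrsf9 (4-1BB) links antigen-presenting cells with activated T and NK cells.

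Tumor and blood libraries held 87703837 (tumor control), 81601307 (tumor IR), 51731085 (blood control) and 51653956 (blood IR) unique molecular identifiers (UMIs) in genes. After cell calling, hashtag assignment and removal of likely doublets, 26516 cells remained, between 2137 and 4411 per group, with 18491859 to 24811251 gene UMIs per group and a median of 2942 to 8563 UMIs per cell. The tumor matrices shared barcodes. Of barcodes with at least 500 UMIs, 7327 of 13144 in tumor control and 4958 of 12927 in tumor IR had fewer than 20 hashtag UMIs, against 11 in each blood matrix, and 7325 and 4955 of these carried hashtags in the matrix of the other tumor condition. Kept tumor cells were therefore counted in the matrix in which they carried hashtags, and the same cells were also counted in the other tumor matrix as an alternative. Whether a cell came from a control or an irradiated tumor thus rests on its hashtag counts. The hashtag labels were checked with Ythdf2 and Lyz2. Ythdf2 stood at 51.2 and 55.9 depth-scaled counts (CPM, UMIs of the gene per 1000000 gene UMIs) in tumor cells labelled WT and at 338 and 373 CPM in tumor cells labelled cKO, so its 3′ counts were higher, not lower, in cells labelled cKO. The floxed segment is not given in the sources used here, so 3′ counts may lie outside it and check nothing. Lyz2, the lysozyme gene of myeloid cells, was at 83.3 to 138 CPM in cells labelled cKO and at 5624 to 14327 CPM in cells labelled WT. The labels thus differ in Cre and in Lyz2 as well as in the deletion of Ythdf2, and these cannot be told apart here. Groups are called by their labels below. The sort markers Ptprc (CD45) and Itgam (CD11b) had UMIs in 79.9% to 99.6% and 72.3% to 82.5% of cells in the groups, and Ly6c2 (Ly6C) in 31.6% to 66.2%. Against marker lists, tumor cells were mostly macrophage-like (47.9% to 57.1% of a group) or unnamed (23.4% to 40.6%), and blood cells were mostly neutrophil-like (64.7% to 69.1%), so the labelled gate held more than monocytic cells.

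Levels are CPM of a group's summed UMIs, with exact Poisson 95% intervals, and differences are log2 ratios of CPM with exact binomial 95% intervals. With 1 pool per group the intervals cover counting error only, no test was possible, and a difference was called a rise or fall only where the ratio reached 1 in size on the log2 scale and the gene had at least 100 UMIs over both groups. Within single clusters, ratios were counted where both groups had at least 50 cells and the gene had at least 20 UMIs over both groups. Counts of clusters past the limit used that lower minimum in place of 100 UMIs. CPM from 3′ tags were not compared between genes. In sums over all cells of a group, fewer cells of a type and less RNA per cell cannot be told apart, so values within cell classes follow the sums. Comparisons of IR with control and of cKO with WT in tumors share the control tumor group labelled cKO, and their values are given side by side.

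Tnf encodes TNF, the founding inflammatory cytokine of the family (ENSMUSG00000024401, minus strand of mouse chromosome 17, chr17:35199381-35202007 in mm10). In control tumors Tnf was at 177 CPM (171 to 183) in cells labelled WT and at 457 CPM (448 to 465) in cells labelled cKO. In irradiated tumors it was at 225 CPM (219 to 232) in WT and 187 CPM (182 to 193) in cKO. The control cKO pool was thus the high one of the 4 tumor groups, and the other groups lay close together. With IR, Tnf fell 2.44-fold in cells labelled cKO, a log2 ratio of -1.28 (-1.33 to -1.23), while the WT ratio was 0.35 (0.29 to 0.41) and did not reach the limit. Before IR, Tnf was 2.59-fold higher in cKO than in WT, a log2 ratio of 1.37 (1.32 to 1.43), whereas after IR the ratio was -0.26 (-0.32 to -0.20). In blood, Tnf was at 11.7 CPM (10.3 to 13.3) in control WT, 20.6 (18.6 to 22.7) in control cKO, 12.9 (11.4 to 14.5) in IR WT and 12.2 (10.6 to 13.9) in IR cKO. The control cKO pool was again the highest, with a log2 ratio to WT of 0.81 (0.57 to 1.04), short of the limit.

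**Figure D1:**
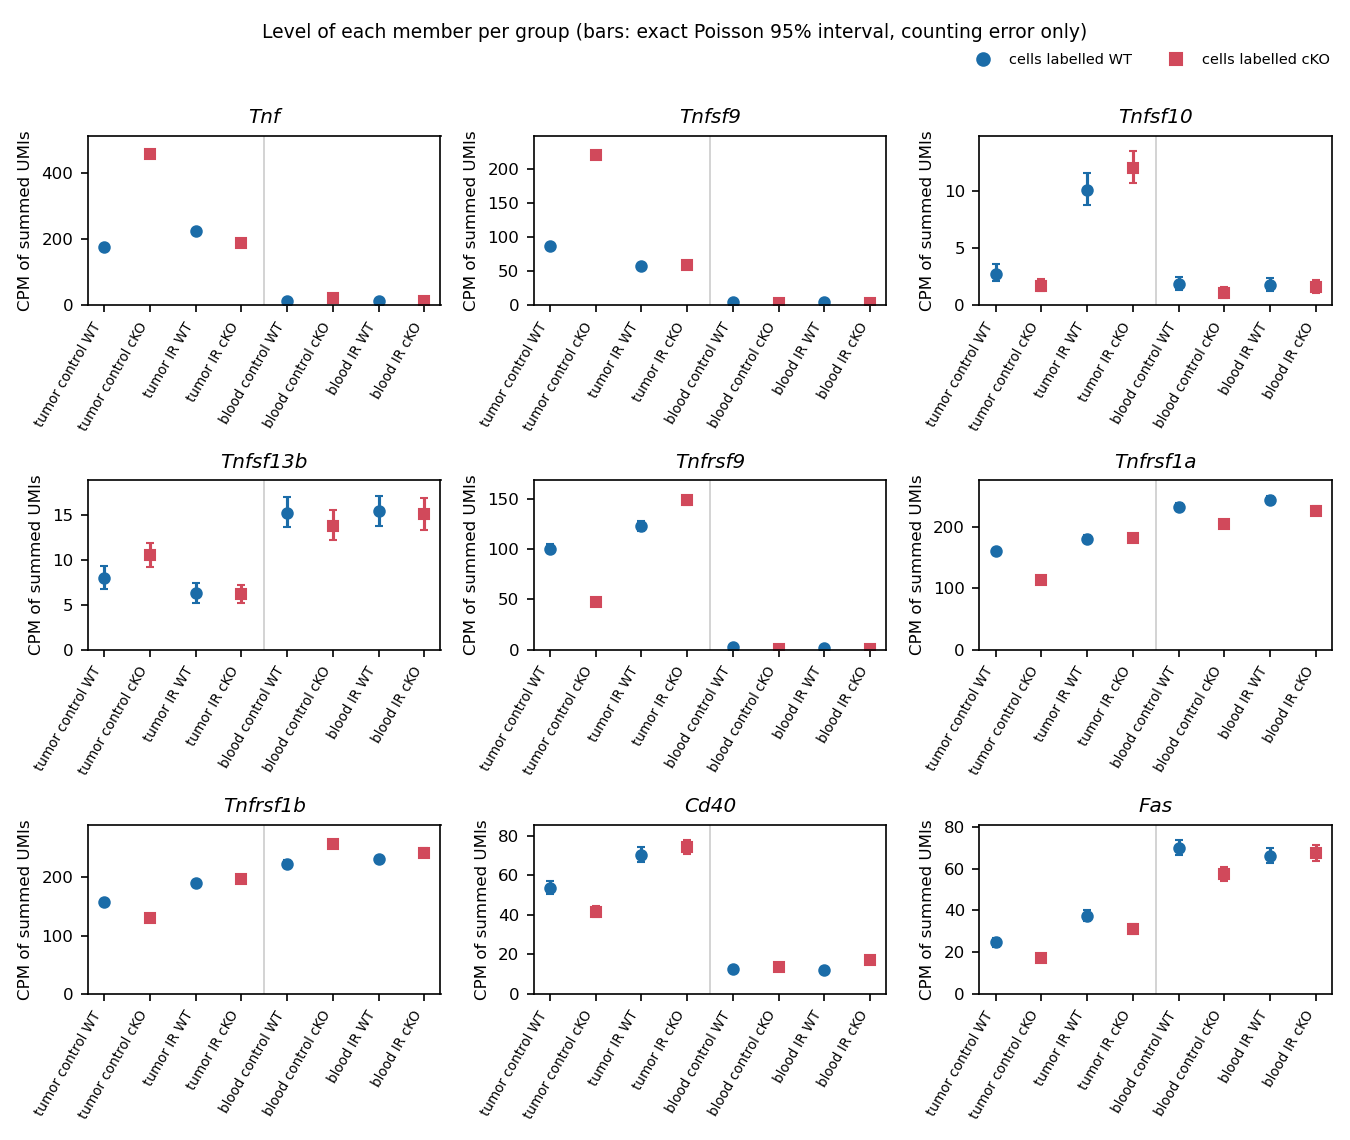
Level of each of the 9 genes in the 8 groups, as CPM of summed UMIs on linear axes that start at 0, with exact Poisson 95% intervals for counting error; each point is 1 pool of 5 mice. Tnf and Tnfsf9 were highest in the control tumor pool labelled cKO (457 and 221 CPM), Tnfrsf9 was lower there than in the other tumor pools (47.6 CPM), and all 3 were far lower in blood.

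The same Tnf differences were present inside the tumor cell clusters. Macrophage-like cells held 75.7% of tumor Tnf UMIs and unnamed clusters 23.5%. In macrophage-like cells alone Tnf was at 260 CPM in control WT, 680 in control cKO, 271 in IR WT and 207 in IR cKO. IR against control then gave a log2 ratio of 0.06 in WT and -1.71 in cKO, and that of cKO to WT was 1.39 before IR and -0.39 after it. Different clusters made up most of this class in the groups. Clusters 8 (led by Cdh1 and Dcstamp) and 11 (led by Fcrls, Ccl8 and Folr2) held 22.1% and 22.0% of control cKO cells, and clusters 2 (led by Ifit1bl1, Cfb and Ifit2) and 5 (led by Mmp13 and Mmp12) held 27.9% and 22.6% of IR cKO cells. Within single clusters with at least 20 UMIs, Tnf was nonetheless lower after IR in cKO in 7 of 7, with log2 ratios from -2.38 to -1.05. In control tumors it was higher in cKO than in WT in 8 of 8 clusters and past the limit in 6, with log2 ratios from 0.81 to 2.19.

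**Figure D2:**
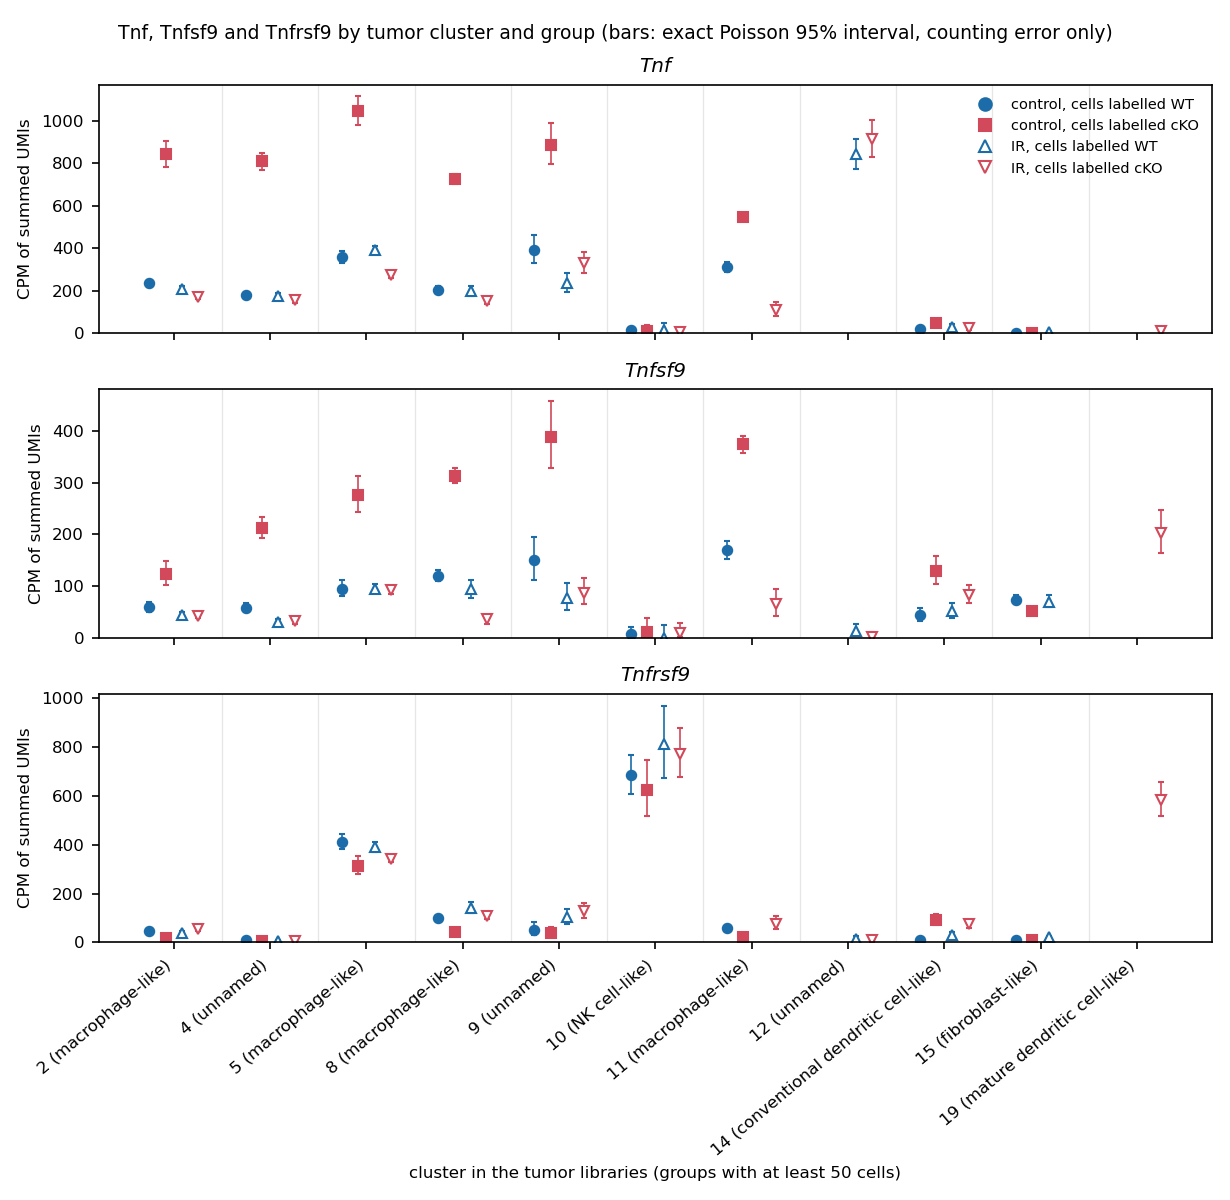
Levels of Tnf, Tnfsf9 and Tnfrsf9 in CPM of summed UMIs by tumor cluster (horizontal axis) and tumor group (symbols; control filled, IR open), with exact Poisson 95% intervals for counting error, where a group had at least 50 cells in the cluster. Control cells labelled cKO (filled squares) stood highest for Tnf in clusters 2, 4, 5, 8, 9 and 11, at 548 to 1048 CPM, and Tnfrsf9 was highest in the NK-like and mature dendritic-like clusters.

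The share of cells with a Tnf UMI moved the same way. After each cell was thinned to 1500 UMIs, 16.2% of control WT, 37.3% of control cKO, 20.9% of IR WT and 17.3% of IR cKO tumor cells had a Tnf UMI. Without thinning, the shares were 34.5%, 59.2%, 38.6% and 36.0%. Thinning left out 147, 85, 249 and 283 shallower cells in that order. Fibroblast-like cells, which should not make TNF, had a Tnf UMI in 0.43% of thinned cells (0.05% to 1.54%) at a median of 26371.5 UMIs per cell, against 25.7% (24.6% to 26.8%) in macrophage-like cells at a median of 7499 UMIs. Free RNA in the tumor control and tumor IR libraries, read from near-empty droplets, held Tnf at 340 and 196 CPM, and tumor fibroblast-like cells were at 2.30 CPM.

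In control blood, the higher Tnf of cells labelled cKO was seen in monocyte classes, and the neutrophil-like intervals overlapped. Tnf was at 17.8 CPM in control cKO and 5.43 CPM in control WT monocyte-like cells (36 and 13 UMIs; log2 ratio 1.63, 0.76 to 2.75). In nonclassical monocyte-like cells it was at 27.4 and 11.2 CPM (234 and 93 UMIs; log2 ratio 1.29, 0.94 to 1.66). In neutrophil-like cells it was at 15.2 and 15.8 CPM (109 and 127 UMIs; log2 ratio -0.06, -0.44 to 0.32). Monocyte-like sums rest on few UMIs, under the 100 set for a call, and the nonclassical ratio passed the limit. Over all cells, the control ratio of cKO to WT passed the limit in tumor (1.37) and was short of it in blood (0.81).

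In the irradiated pools, Tnf was highest in cluster 12, at 843 CPM in WT and 914 CPM in cKO against at most 392 and 330 CPM in the other clusters. This was an unnamed cluster led by the chemokine genes Ccl3 and Ccl4 together with G0s2 and Acod1. It made up 0.56% and 1.26% of control WT and cKO cells and 10.5% and 6.44% of IR WT and cKO cells, too few in control for a level there, and in control cKO cluster 5 was the highest at 1048 CPM. Summed neutrophil markers in tumors were at 229 and 263 CPM in control WT and cKO and at 1801 and 1174 CPM in IR WT and cKO. The neutrophil-like class held 12 tumor cells, and whether cluster 12 holds neutrophils was not tested. Over all tumor groups, conventional dendritic-like cells were at 26.7 CPM, T-like cells at 15.5 CPM and NK-like cells at 10.3 CPM, far below the macrophage-like class at 351 CPM.

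Promoter sequence is shown for Tnf, Tnfsf10 and Tnfrsf9, which are the 3 genes with a RefSeq window among the 4 that passed the limit after IR in tumor cells labelled cKO (Tnfsf9 and Cd40 had no window). Each run is the 250 bases upstream of a RefSeq start site in GRCm38.p6 (mm10), written 5′ to 3′ in the direction of the gene, for Tnf at chr17:35202008-35202257 (minus strand), for Tnfsf10 at chr3:27316827-27317076 (plus strand) and for the downstream start of Tnfrsf9 at chr4:150927749-150927998 (plus strand). Capitals mark matches to the motifs searched on both strands.

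Tnf: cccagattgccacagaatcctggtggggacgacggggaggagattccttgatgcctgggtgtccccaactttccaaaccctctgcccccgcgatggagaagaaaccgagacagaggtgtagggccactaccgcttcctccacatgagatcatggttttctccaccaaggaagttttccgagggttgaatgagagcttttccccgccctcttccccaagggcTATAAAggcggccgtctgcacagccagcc
Tnfsf10: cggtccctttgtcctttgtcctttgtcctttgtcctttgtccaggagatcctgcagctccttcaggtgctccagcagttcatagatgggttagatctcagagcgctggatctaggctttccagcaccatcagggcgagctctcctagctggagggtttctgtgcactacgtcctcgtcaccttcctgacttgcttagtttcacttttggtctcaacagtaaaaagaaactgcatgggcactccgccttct
Tnfrsf9: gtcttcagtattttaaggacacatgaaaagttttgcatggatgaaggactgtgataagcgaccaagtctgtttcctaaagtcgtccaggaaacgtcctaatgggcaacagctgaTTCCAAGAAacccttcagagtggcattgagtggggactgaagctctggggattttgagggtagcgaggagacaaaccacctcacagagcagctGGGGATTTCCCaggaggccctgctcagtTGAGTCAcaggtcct

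The capitals in the Tnf window are the TATA box TATAAA, 29 to 24 bases before the start, a motif held by 12.4% of all 32851 upstream windows. In the Tnfrsf9 window they are, in order, a STAT element (TTCNNNGAA, in 7.02% of windows), a pair of overlapping matches to the kappaB consensus (3.9%) 43 to 33 bases before the start, and an AP-1 site (TGACTCA or TGAGTCA, 4.46%). The Tnfsf10 window held none of these, and it also held no match to the interferon-stimulated element (GAAA, any 2 bases, GAAA), which 2.98% of windows hold and which was found in windows of Tnfrsf1b and Tnfsf13b. Windows were found for 7 of the 9 genes. Tnfrsf9 had a further window at its upstream start (chr4:150919905-150920154, plus strand), which held no match to any of the motifs searched. A match is a description of letters and not of binding.

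Tnfsf9 encodes 4-1BB ligand, a costimulatory ligand displayed by activated antigen-presenting cells (ENSMUSG00000035678, plus strand, chr17:57105325-57107757). It was at 87.1 CPM (83.1 to 91.3) in control tumor cells labelled WT and 221 CPM (215 to 227) in those labelled cKO, and at 58.0 (54.7 to 61.4) and 59.4 (56.4 to 62.5) CPM after IR. As for Tnf, the control cKO pool stood above the other 3 tumor pools. IR against control gave a log2 ratio of -0.59 (-0.69 to -0.48) in WT, short of the limit. The cKO ratio was -1.89 (-1.98 to -1.81), where Tnfsf9 fell 3.71-fold. Control cKO exceeded control WT by 1.34 (1.26 to 1.42) on the log2 scale, and after IR the ratio was 0.03 (-0.08 to 0.15). In blood the 4 groups lay between 2.87 and 4.36 CPM, with overlapping intervals.

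Within single tumor clusters Tnfsf9 was lower after IR in cKO in 7 of 7 clusters, 6 past the limit (-3.13 to -0.62), and higher in control cKO than WT in 7 of 8, all 7 past the limit. The exception was the fibroblast-like cluster at -0.51. Tnfsf9 was spread over more classes than Tnf, with 216 CPM in mature dendritic-like cells, 138 in macrophage-like cells, 71.7 in tumor conventional dendritic-like cells, 61.5 in fibroblast-like cells and 31.8 in blood conventional dendritic-like cells. These class levels sum over groups, and macrophage-like cells alone ran from 61.4 CPM in IR cKO to 324 CPM in control cKO. Among macrophage-like clusters of the control pools, Tnfsf9 was highest in cluster 11, at 169 CPM in WT and 374 CPM in cKO, but after IR in cKO cluster 5 (91.6 CPM) stood above it (65.2 CPM). Tnf and Tnfsf9 were found together in cells. At 1500 UMIs per cell, 23.7% of control WT macrophage-like cells with a Tnf UMI had a Tnfsf9 UMI against 8.47% of those without, and in control cKO the shares were 32.2% and 18.7%. After IR they were 12.7% and 6.59% in WT and 11.2% and 6.35% in cKO.

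Tnfsf10 encodes TRAIL, a ligand that triggers apoptosis through death receptors and is an interferon-induced gene (ENSMUSG00000039304, plus strand, chr3:27317028-27342427). In tumors it went from 2.77 CPM (2.09 to 3.60; 56 UMIs) to 10.1 (8.79 to 11.6; 206 UMIs) with IR in cells labelled WT and from 1.69 (1.2 to 2.3; 40 UMIs) to 12.1 (10.8 to 13.5; 300 UMIs) in cKO. It rose 3.61-fold in WT (log2 ratio 1.85, 1.44 to 2.32) and 7.02-fold in cKO (2.81, 2.36 to 3.36), and irradiated and control pools did not overlap in either label. In blood it was at 1.06 to 1.84 CPM in all 4 groups on 20 to 39 UMIs, too few to count. Macrophage-like cells alone gave ratios of 2.14 in WT and 2.95 in cKO. Most of it came from cluster 2, the macrophage-like cluster led by the interferon-induced genes Ifit1bl1, Ifit2 and Rsad2, at 26.2 CPM in IR WT and 29.9 CPM in IR cKO, where Tnfsf10 rose by 1.63 (1.03 to 2.34) in WT on the log2 scale. The cKO ratio there was 4.51 (2.30 to 10.1), on 224 UMIs after IR against 1 UMI in control. Over the single clusters counted, Tnfsf10 was past the limit in 2 of 2 in WT (1.63 and 1.98). In cKO it was higher in 3 of 3 (0.42 to 4.51, median 0.73), but cluster 2 alone was past the limit. Cluster 2 made up 16.3% and 5.29% of control WT and cKO cells and 27.0% and 27.9% after IR. A list of type I interferon genes was also higher in irradiated tumors. It was drawn up after the values were seen and holds Ifit2 and Rsad2, which also lead cluster 2. All 9 of those measured passed the limit in both labels, where 5.86% of all counted genes did in WT and 21.8% in cKO. Their median log2 ratios were 2.78 in WT and 3.84 in cKO, and a link to Tnfsf10 was not tested. Outside macrophage-like cells, Tnfsf10 was at 29.6 CPM in tumor T-like cells, 11.9 in blood B-like cells and 11.3 in tumor NK-like cells, on 21, 4 and 12 UMIs.

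Tnfsf13b encodes BAFF, the survival factor for B cells (ENSMUSG00000031497, plus strand, chr8:10006467-10039072). It was a low gene in tumors, at 7.96 CPM (6.78 to 9.29) in control WT, 10.5 (9.24 to 11.9) in control cKO, 6.29 (5.25 to 7.48) in IR WT and 6.17 (5.23 to 7.22) in IR cKO. The irradiated pools overlapped each other. Its ratio with IR was -0.34 (-0.69 to 0.00) for WT and -0.76 (-1.07 to -0.47) for cKO, neither past the limit over all cells. In macrophage-like cells alone the cKO ratio was -1.10, past the limit. Blood held more of it, at 13.8 to 15.4 CPM in all 4 groups with overlapping intervals. Neutrophil-like cells, at 29.9 CPM, held 73.8% of blood Tnfsf13b UMIs, and mature dendritic-like cells had 0 UMIs, which allows a level of up to 3.11 CPM (3 counts of the class total).

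Tnfrsf9 encodes 4-1BB, the receptor for Tnfsf9 and an activation-induced costimulator of T and NK cells (ENSMUSG00000028965, plus strand, chr4:150914562-150946102). In tumors it was at 100 CPM (95.8 to 105) in control WT, 47.6 (44.9 to 50.5) in control cKO, 123 (118 to 128) in IR WT and 148 (143 to 153) in IR cKO. Here the control cKO pool was the low one, the mirror of its ligand. Tnfrsf9 rose 3.11-fold with IR in cKO (log2 ratio 1.64, 1.54 to 1.73), while the WT ratio was 0.30 (0.21 to 0.38). Control cKO stood 2.10-fold below control WT (log2 ratio -1.07, -1.18 to -0.97), and after IR the ratio was 0.27 (0.20 to 0.34). The control difference was smaller without the non-myeloid classes. NK-like cells made up 5.07% of control WT and 2.67% of control cKO tumor cells, fibroblast-like cells 4.59% and 11.7%, and their parts in it were not tested separately. Without NK-like, T-like, B-like, fibroblast-like and erythroid-like cells the ratio was -0.89, short of the limit, whereas in macrophage-like cells alone it was -1.30.

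Tumor T-like and NK-like cells had the highest levels of Tnfrsf9, at 812 CPM (747 to 881) and 716 CPM (666 to 769), and mature dendritic-like cells followed at 538 CPM (493 to 587). T-like and NK-like intervals overlapped. Macrophage-like cells, at 134 CPM, nonetheless held 73.3% of tumor Tnfrsf9 UMIs and 57.2% of all tumor UMIs, and cluster 5, led by Mmp13, Mmp12 and Arg1, reached 365 CPM. That cluster made up 5.85% of control cKO cells and 22.6% of IR cKO cells. Within single clusters, Tnfrsf9 was higher after IR in cKO in 7 of 8 clusters, 4 of them past the limit, and in control tumors it was lower in cKO than in WT in 8 of 9, 3 of them past the limit. In cluster 14, conventional dendritic-like cells, the control ratio of cKO to WT went the other way, at 3.01. In blood Tnfrsf9 was close to absent outside NK-like cells, which held 97.0% of its 133 UMIs at 88.5 CPM. Monocyte-like and nonclassical monocyte-like blood cells had 0 UMIs, which allows up to 0.176 and 0.106 CPM. Blood groups stood at 3.02 CPM (64 UMIs) in control WT, 1.01 (19) in control cKO, 1.84 (40) in IR WT and 0.541 (10) in IR cKO. NK-like cells numbered 211, 58, 109 and 44 in those groups, and the groups ranked the same way in both. Within control NK-like cells the log2 ratio of cKO to WT was 0.12. IR cKO had too few NK-like cells for a level, and the part of cell number in the blood differences was not tested.

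**Figure D3:**
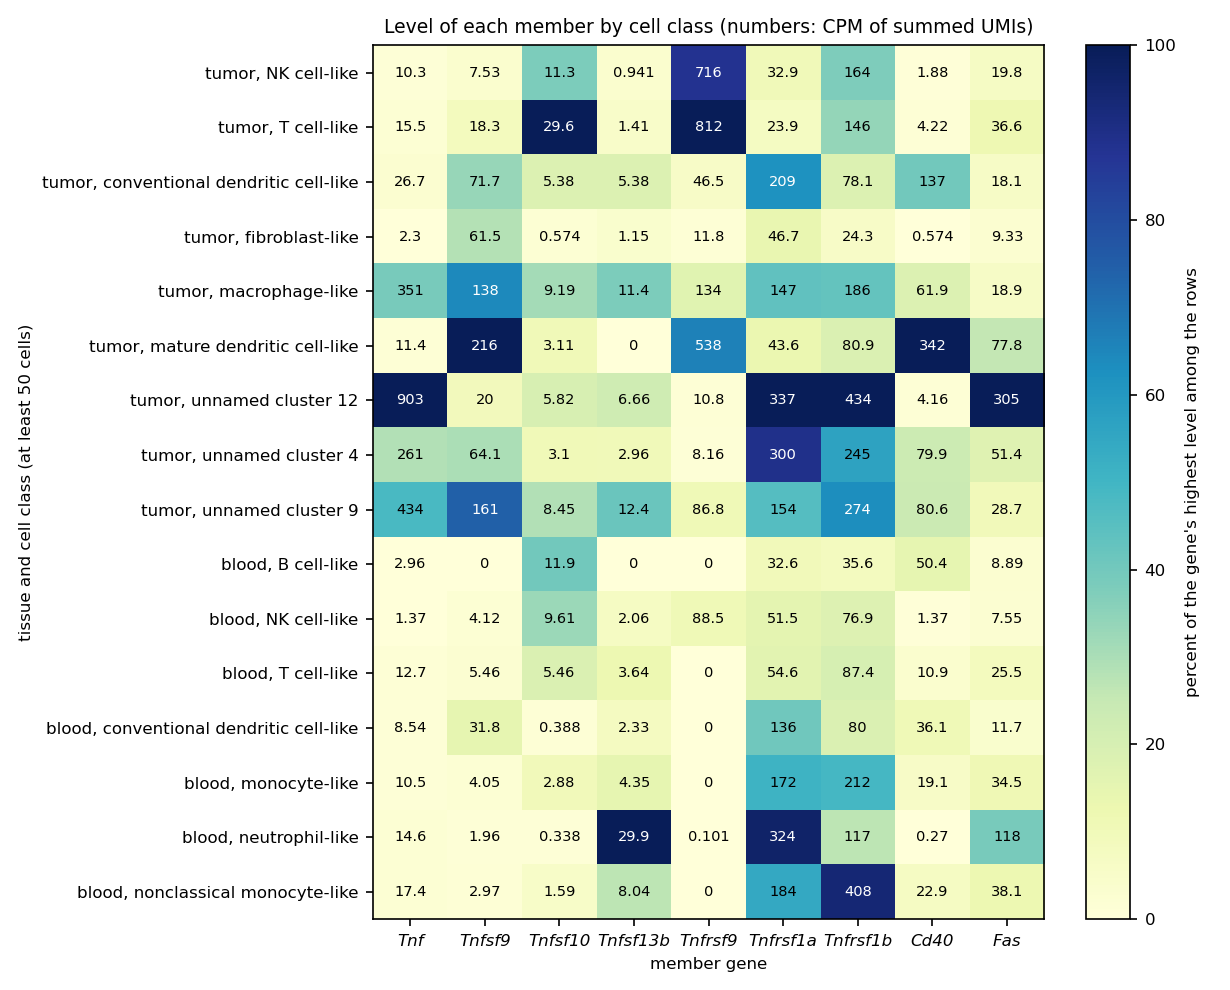
Level of each of the 9 genes by cell class and tissue, as CPM over all cells of the class. Tnf was high in tumor macrophage-like cells (351 CPM) and at most 17.4 CPM in named blood classes, Tnfrsf9 in T-like, NK-like and mature dendritic-like tumor cells (812, 716 and 538 CPM), Tnfrsf1b in nonclassical monocyte-like blood cells (408 CPM) and Cd40 in mature dendritic-like cells (342 CPM).

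Tnfrsf1a encodes TNF receptor 1, the widely expressed TNF receptor with a death domain (ENSMUSG00000030341, plus strand, chr6:125349362-125362484). Its 8 groups lay within 113 and 244 CPM. In tumors it was at 160 CPM (154 to 165) in control WT, 113 (108 to 117) in control cKO, 181 (175 to 187) in IR WT and 182 (177 to 187) in IR cKO, so that the irradiated pools overlapped and the control cKO pool was the lowest. No Tnfrsf1a ratio reached the limit, though with TMM scaling that of tumor to blood in cKO did (-1.01). With IR in tumors it was 0.69 (0.62 to 0.76) in cKO, against 0.18 (0.11 to 0.25) in WT. In blood the 4 groups were at 205 to 244 CPM. Neutrophil-like cells were at 324 CPM (318 to 331) and held 52.6% of blood Tnfrsf1a UMIs, and cluster 12 in tumors, the cluster highest for Tnf, was at 337 CPM.

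Tnfrsf1b encodes TNF receptor 2, which lacks a death domain and is found mainly on immune cells (ENSMUSG00000028599, minus strand, chr4:145213463-145246870). It was at 158 CPM (152 to 163) in control WT, 130 (125 to 134) in control cKO, 190 (184 to 196) in IR WT and 198 (192 to 203) in IR cKO tumor cells, and at 223 to 257 CPM in blood. With IR the tumor ratios were 0.27 (0.20 to 0.34) for WT and 0.61 (0.54 to 0.67) for cKO, and within clusters it lay on both sides of 0. The classes set the receptors apart. Tnfrsf1b was highest among blood classes in nonclassical monocyte-like cells (408 CPM, 400 to 415), with 621 CPM in their Cd300e and Fabp4 cluster, against 212 CPM in monocyte-like and 117 CPM in neutrophil-like cells, whereas Tnfrsf1a was at 184, 172 and 324 CPM in the same classes. Intervals of the 3 classes did not overlap for Tnfrsf1b.

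Cd40 encodes the receptor for CD40 ligand, which licenses antigen-presenting cells (ENSMUSG00000017652, plus strand, chr2:165055627-165072948). It was at 53.7 CPM (50.6 to 57.0) in control WT, 41.6 (39.1 to 44.3) in control cKO, 70.4 (66.8 to 74.1) in IR WT and 74.3 (71.0 to 77.8) in IR cKO tumor cells. Irradiated pools stood above control pools in both labels, but the log2 ratios, 0.39 (0.27 to 0.50) in WT and 0.84 (0.72 to 0.95) in cKO, were short of the limit. Within single clusters the direction did not hold, with a WT median of 0.02 over 6 clusters, a cKO median of -0.25 over 7 and 2 of 7 higher in cKO. In blood Cd40 was at 12.2 to 17.4 CPM. The highest blood group was IR cKO (17.4 CPM, 15.5 to 19.4), with a ratio to IR WT of 0.51 (0.27 to 0.75). Cd40 followed antigen-presenting classes, at 342 CPM in mature dendritic-like cells, 137 in tumor conventional dendritic-like cells, 61.9 in macrophage-like cells and 50.4 in blood B-like cells, and at 0.27 CPM in neutrophil-like cells. In blood, nonclassical monocyte-like cells held 58.5% of its UMIs.

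Fas encodes the death receptor for Fas ligand (ENSMUSG00000024778, plus strand, chr19:34290666-34327772). In tumors it was at 24.7 CPM (22.6 to 27.0) in control WT, 17.2 (15.6 to 19.0) in control cKO, 37.4 (34.8 to 40.1) in IR WT and 31.1 (28.9 to 33.3) in IR cKO. Both irradiated pools stood above both control pools. On the log2 scale IR and control differed by 0.59 (0.43 to 0.76) in cells labelled WT and by 0.85 (0.68 to 1.03) in those labelled cKO, neither past the limit. Within single clusters Fas did not follow, with a cKO median of -0.30 over 7 clusters and 2 of 7 higher. Cluster 12, which was 10.5% and 6.44% of irradiated WT and cKO tumor cells, had 308 and 340 CPM of Fas there, against at most 51.3 and 68.3 CPM in the other clusters of those pools. In blood Fas was at 57.3 to 70.0 CPM, and neutrophil-like cells, at 118 CPM, held 66.8% of its UMIs.

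In tumor against blood, Tnf, Tnfsf9, Tnfrsf9 and Cd40 were higher in tumor and Fas was lower, summed over all cells. In control cells labelled WT, Tnf was 15-fold, Tnfsf9 20.5-fold, Tnfrsf9 32.7-fold and Cd40 4.32-fold higher in tumor, and Fas was 2.83-fold lower. In cells labelled cKO the folds were 22.2, 62.1, 45.1 and 3.04, and Fas was 3.32-fold lower. Past the limit were 5 of 8 counted genes in WT, where 35.1% of all counted genes passed it, and 5 of 8 in cKO, where 43.6% did. Over all counted genes the median log2 ratios were 0.11 and 0.22, against 0.81 and 0.61 over these genes. The tissues held different cell classes, so that composition and level per cell cannot be told apart here. NK-like cells, present in both, had 716 CPM of Tnfrsf9 in tumor and 88.5 CPM in blood, and conventional dendritic-like cells had 137 and 36.1 CPM of Cd40. Under TMM scaling Tnfsf13b also passed the limit in WT (-1.03), and Tnfrsf1a (-1.01) and Tnfrsf1b (-1.13) did in cKO.

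IR in tumors moved few of the genes in WT and more in cKO. In cells labelled WT, 1 of 9 genes passed the limit (Tnfsf10), against 5.86% of all counted genes, and the median log2 ratio was 0.30 against -0.13 over all genes. In cells labelled cKO, 4 of 9 passed it (Tnf and Tnfsf9 lower, Tnfsf10 and Tnfrsf9 higher), against 21.8% of all genes, with medians of 0.69 and -0.18. The cKO comparison as a whole thus called many more genes. Its median of 0.69 is the Tnfrsf1a ratio over all cells, which had a median of 0.18 within clusters. The difference between the labels in the effect of IR was -1.63 (-1.71 to -1.55) for Tnf, -1.31 (-1.44 to -1.17) for Tnfsf9, 1.34 (1.21 to 1.47) for Tnfrsf9 and 0.96 (0.33 to 1.59) for Tnfsf10 on the log2 scale, each interval covering counting error of the 4 pools only. In blood, IR moved 0 of 8 counted genes in WT (1.25% of all genes) and 0 of 7 in cKO (1.44%).

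**Figure D4:**
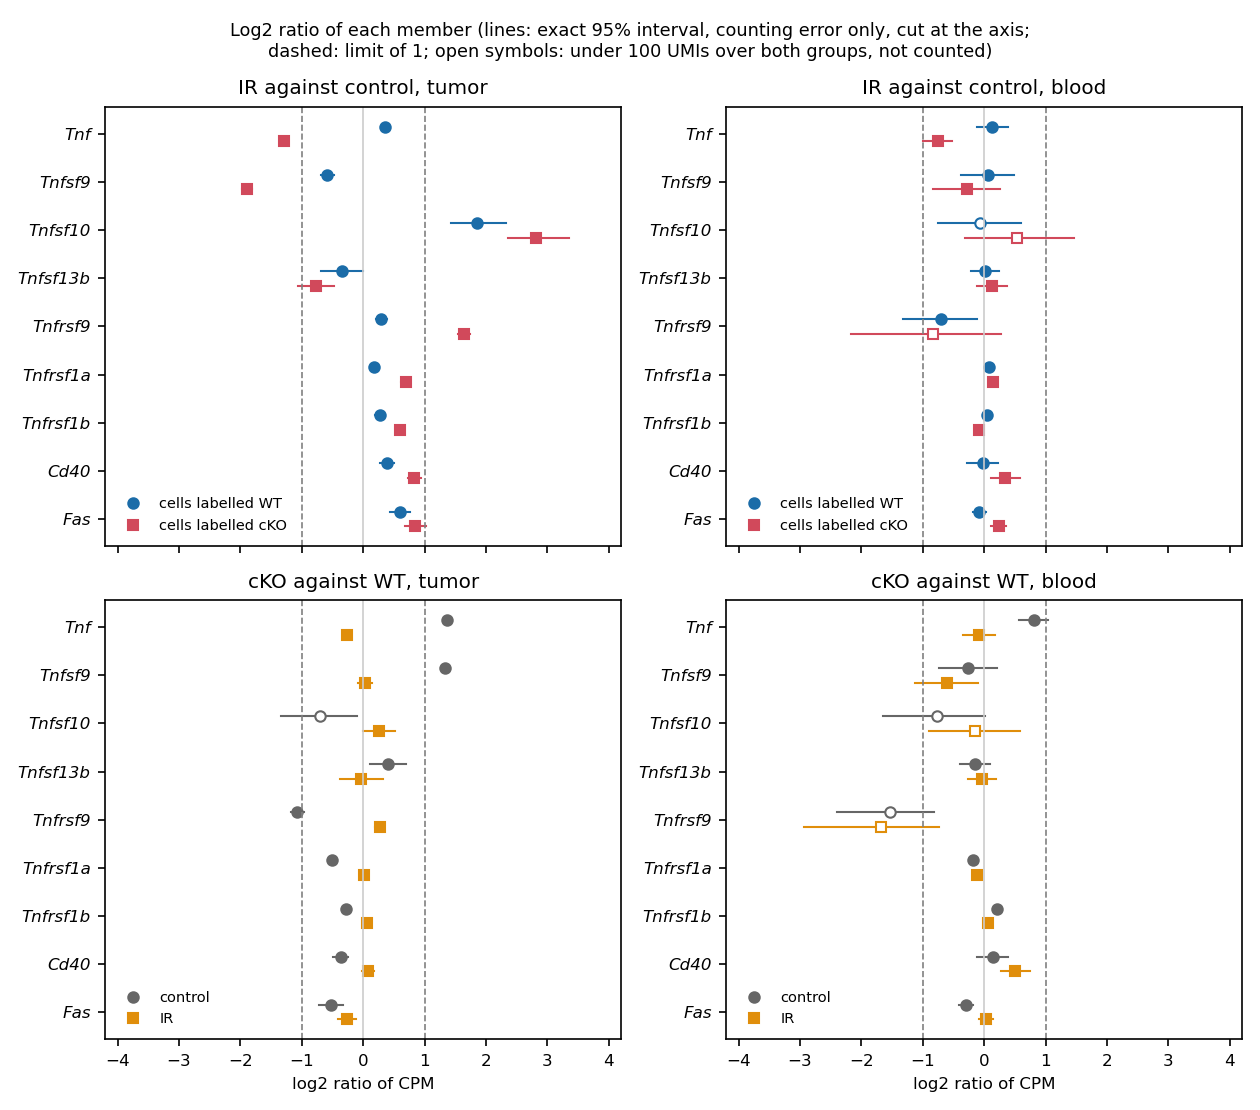
Log2 ratios of CPM for the 9 genes in the comparisons of IR with control and of cKO with WT, with exact binomial 95% intervals for counting error and the limit of 1 drawn on both sides of 0 as dashed lines; open symbols had too few UMIs to be counted. In tumors, Tnf and Tnfsf9 fell with IR in cells labelled cKO (-1.28 and -1.89) and Tnfrsf9 (1.64) and Tnfsf10 (2.81) rose, and cKO against WT in control tumors gave 1.37, 1.34 and -1.07 for Tnf, Tnfsf9 and Tnfrsf9.

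Between labels, the genes differed in control tumors and hardly after IR. In control tumors 3 of 8 counted genes passed the limit (Tnf and Tnfsf9 higher, Tnfrsf9 lower in cKO), against 4.66% of all counted genes. In irradiated tumors 0 of 9 did (1.08% of all genes), and all ratios lay between -0.27 and 0.27. In blood 0 of 7 passed it in control (2.27%) and 0 of 7 after IR (0.686%). Other values moved with the control cKO tumor pool. Its summed fibroblast markers were at 1226 CPM, against 729, 423 and 214 CPM in control WT, IR WT and IR cKO, and its cycling markers at 784 CPM, against 362, 246 and 127 CPM. Of 9 type I interferon genes, 4 were lower in control cKO than in control WT past the limit, with a median log2 ratio of -0.99. A list of 12 dissociation-associated genes had a median of 0.23 there, with 0 past the limit upward and 2 downward (Hspa1a and Hspa1b). For IR against control in tumors its median was -0.29 in cKO, with Egr1 at -1.14 past the limit. In WT that median was 0.05, with Hspa1a (-1.35) and Hspa1b (-1.52) past the limit. The part of these in the differences of Tnf, Tnfsf9 and Tnfrsf9 was not tested, and both lists were drawn up after the values were seen. Counted in the other tumor matrix, the same cells gave a control cKO to WT ratio of 1.41 for Tnf, 1.22 for Tnfsf9 and -1.18 for Tnfrsf9. The IR ratios in cKO were -1.29, -1.86 and 1.75 in that order, with 2.07 for Tnfsf10. Labels and conditions of the cells were kept in this recount, so it cannot check them.

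Other genes of the pathway were counted in 3 lists. Among 14 other ligands, 3 of 7 counted ones passed the limit after IR in WT tumors, where 5.86% of all counted genes did, among them Tnfsf15 at 1.28 and Fasl, the ligand of Fas, at -1.51. In cKO 3 of 6 passed it, where 21.8% of all genes did, all higher, led by Tnfsf8 (CD30 ligand) at 1.77. Among 23 other receptors, 2 of 11 passed it in WT and 3 of 12 in cKO. Tnfrsf26 rose by 1.21 in WT and 2.36 in cKO, Tnfrsf23, a decoy receptor for TRAIL, rose by 1.12 and 1.35, and Tnfrsf12a, the receptor of TWEAK, fell by 1.62 in cKO. Among 17 signalling and processing genes, 0 of 17 passed it in WT and 1 of 17 in cKO, Casp8 at 1.06, the initiator caspase of death receptors. The medians of the 3 lists were -0.15, 0.17 and 0.07 in WT, where the median of all genes was -0.13, and 0.87, 0.43 and 0.26 in cKO, where it was -0.18. In control tumors, Fasl (-1.47), Ltb (-1.24) and Tnfsf8 (-1.03) were lower in cKO than in WT, 3 of 6 counted ligands, with 0 of 13 receptors and 0 of 17 signalling genes past the limit and 4.66% of all genes. In blood, past the limit stood Traf1 after IR in cKO (-1.04), Fasl in control cKO against WT (-1.77) and Tnfaip3, which restrains NF-κB, in IR cKO against WT (-1.21). Summed NK cell markers were lower in the same comparisons as Fasl. They stood at 433 and 158 CPM in control WT and cKO tumors, 207 CPM in IR WT tumors, and 734 and 219 CPM in control WT and cKO blood. The part of NK-like and T-like cells in these ligand ratios was not tested.

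Likeness of pattern was read as Pearson's r of log2(CPM + 5) across 33 units of group and cell class that share libraries and depth, as a description only. The genes most like Tnf were Gpr84 (0.92), AU022793 (0.91) and Olr1 (0.91), and those most like Tnfsf9 were Cttnbp2nl (0.92), Fmnl2 (0.90) and Sh3pxd2b (0.90). Cd40 had the closest gene of all, Pkib (0.97), followed by Dapk1 and Syngr2 (both 0.94), and Tnfrsf1a had Mefv (0.95), Alox5ap and Wfdc17 (both 0.94). Tnfrsf9 was most like Ccl5 (0.90), Pde4d (0.90) and Rnf157 (0.89), and Tnfsf13b was most like Gk (0.91), Cd33 (0.90) and Cd300ld (0.88). The weaker leaders were Sbno2 (0.88), Dennd5a (0.83) and F830208F22Rik (0.81) for Fas, Ppt2 (0.85), Mapkapk2 (0.84) and Abi3 (0.83) for Tnfrsf1b, and Ccdc25 (0.79), Nlrc5 (0.74) and Adora2a (0.72) for Tnfsf10. Between the 9 genes themselves, Tnfsf13b and Tnfrsf1a had an r of 0.76 and Tnfrsf9 and Tnfrsf1a one of -0.70.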

How the data were processed

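Sorted cells of 8 pools were measured in 4 droplet libraries. The authors deposited raw UMI counts per gene, hashtag and barcode, with no normalization; per the file headers they were made with Cell Ranger 4, while the submitters' processing notes name Cell Ranger 6.0.1, Seurat 4.0.6 and mm10. Cells were called here by an order-of-magnitude threshold plus a test against the profile of the barcodes ranked 45000 to 90000 (10000 simulations, level 0.01), on barcodes with at least 500 UMIs and 200 genes and at most 25% mitochondrial UMIs. A genotype needed 20 hashtag UMIs: WT where B0301 was at least B0302, cKO where B0302 was at least 4 times B0301. As Scrublet's own threshold marked under 0.5% of barcodes in each library and so had not worked, the top 6% of scores were removed. Kept cells numbered 4642 and 6863 (control and IR tumor) and 7997 and 7014 (control and IR blood).

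Cells were clustered with scanpy 1.11.5 and leidenalg 0.10.2 (2000 variable genes, 40 components, 20 neighbours, resolution 0.8), leaving out the 9 genes, the TNF lists, Ythdf2 and Lyz genes. Of 22 clusters, 19 were named from marker lists (at least 3 raised markers), and levels are given for units of at least 50 cells. Log2 ratios had 1 UMI added, scaled to depth. Positions came from GENCODE vM21 (9 of 9 genes matched by identifier) and promoters from RefSeq. Thinning used 1500 UMIs and left out shallower cells. Ratios were tested on simulated data. Named besides the 9 genes were Ythdf2 and Lyz2, up to 4 other TNF pathway genes past the limit per comparison of IR or label, and the 3 genes most like each. Alternatives were TMM scaling (edgeR 4.0.16), other UMI minimums, doublet and cell-calling settings, HTODemux (Seurat 5.3.0), clustering resolutions of 0.4 and 1.2, single classes and the other tumor matrix. Samples were never replicated, so no test was made. The genes and lists were chosen with earlier results of these data known.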

Additional observations from a re-analysis of the deposited data

Results flagged for a closer look

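Summed over all tumor cells, Tnf was higher after IR in cells labelled WT and lower in cells labelled cKO. In cells labelled WT, Tnf went from 177 to 225 CPM, a log2 ratio of 0.35, and in cells labelled cKO from 457 to 187 CPM, a log2 ratio of -1.28, so that the difference of the ratios was -1.63. The WT ratio did not reach the limit of 1 and was 0.06 in macrophage-like cells alone. Within 6 clusters it ran from -0.73 to 0.75 with a median of -0.04, and it was above 0 in 2 of them. Higher Tnf in WT was thus not general over the clusters counted. Cluster 12, which went from 0.56% to 10.5% of WT cells with IR, had 14 control WT cells, too few for a ratio. The cKO ratio was below 0 in 7 of 7 clusters. The difference was not tested, since each of the 4 pools involved was 1 sample, and it follows mainly from the level in the control cKO pool. In blood the difference of the same kind was -0.89 (-1.23 to -0.54, counting error only).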

How the results depend on the processing

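No paired analysis was possible because each group was 1 sample and no test was made. Over 17 settings, 144 of 148 alternative counts of genes past the limit stayed within 1.5 times, and 4 did not. In blood, cKO against WT had 1 gene past the limit (Tnfrsf9) in place of 0, in control and after IR, both with a minimum of 20 UMIs and with a minimum of 1 UMI. Of 1332 alternative ratios of the 9 genes, 0 changed sign while called and 178 moved beyond their counting interval. TMM scaling added 0.16 (WT) and 0.21 (cKO) to every log2 ratio of IR to control in tumors, more than 0.1, and brought Cd40 (1.04) and Fas (1.06) past the limit in cKO. After IR in cKO, Tnfsf13b passed it in the other tumor matrix (-1.17) and without NK-like, T-like, B-like, fibroblast-like and erythroid-like cells (-1.15). For tumor against blood, TMM scaling brought Tnfsf13b in WT (-1.03) and Tnfrsf1a (-1.01) and Tnfrsf1b (-1.13) in cKO past the limit, and Tnfrsf1b also passed it with the order-of-magnitude threshold alone (-1.04) and, just at the limit, without cluster 9. That setting without the non-myeloid classes and the one without cluster 9, a cluster of few UMIs per cell, were chosen after seeing the data. With 1 pool per group, differences between mice cannot be seen. Depth limits Tnfsf10 and Tnfrsf9 in blood, at 10 to 64 UMIs per group.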

Other observations

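In control tumor against control blood, 2 of 5 counted other ligands, 7 of 12 other receptors and 6 of 17 signalling and processing genes passed the limit in cells labelled WT, where 35.1% of all counted genes did. In cKO 3 of 5, 8 of 12 and 4 of 17 did, against 43.6%. In control cells labelled WT, Tnfrsf12a (the TWEAK receptor) was higher in tumor by a log2 ratio of 4.86, Traf1 by 2.91, Tnfrsf11a (RANK) by 2.13 and Tnfrsf4 (OX40) by 1.97, while Ltb (lymphotoxin beta) was at -4.30, Relt at -2.89 and Tnfsf14 (LIGHT) at -2.63. In cells labelled cKO, Tnfrsf12a was at 5.24, Tnfaip3 at 2.76, Traf1 at 2.53, Ltb at -5.20, Relt at -3.25 and Tnfsf14 at -2.89. These genes were named after their values were seen.

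In control blood, cluster 13, neutrophil-like cells led by the granule genes Ngp, Ltf and Camp, made up 0.84% of cells labelled WT and 12.9% of cells labelled cKO. After IR it made up 0.99% and 1.2%. Tnf was at 11.2 CPM and Fas at 62.0 CPM in that cluster, against 16.3 and 116 CPM in cluster 0, the neutrophil-like cluster led by Slc40a1.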
